A study of Mus musculus with 6 samples.

Results

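The results below describe 10 genes that carry cytokine signals from the receptor to the nucleus: the kinases Jak1, Jak2 and Jak3, the transcription factors Stat3, Stat4, Stat5a, Stat5b and Stat6, and the feedback inhibitors Socs1 and Cish. They were chosen by name, and all 10 were found among the 16383 genes of the deposited table. The RNA came from innate lymphoid cell precursors (ILCPs), bone marrow cells from which innate lymphoid cells arise, of Rag1cre;ET-2 mice of the C57BL/6 strain. The 3 GFP+ libraries held ILCPs expressing the ET-2 transgene, and the 3 GFP- libraries held ILCPs of the same marrow without GFP. Both groups come from mice with the same Rag1cre and ET-2 alleles, and each replicate is a pool of 4 to 5 mice from which both fractions were sorted. ET-2, as background, joins the part of E47 that activates transcription to the part of TAL1 that binds DNA, and was designed to increase the activity of E proteins. Since Cre is driven by Rag1 and no library used here carries Rag1cre without ET-2, ET-2 and a history of Rag1 expression cannot be told apart. The p-values measure the spread between libraries, each a sorted fraction of a pool of mice, and the main tests did not use the pairing.

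Cytokines such as IL-7 bind receptors that have no kinase of their own, and Janus kinases (JAKs) bound to the receptor tails phosphorylate them. STAT proteins dock there, are phosphorylated in turn, pair up and move to the nucleus, where they activate genes that include inhibitors of the same route, the SOCS proteins and CISH. In lymphoid precursors, IL-7 signals through JAK1, JAK3 and mainly STAT5, and this signal is known to be needed for their survival and growth.

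Libraries held 10432461 to 19038554 estimated counts, of which the 10 genes took 0.193% to 0.393%. Il7r, the receptor chain used for the sort, stood at 1259 to 2679 CPM. CPM here are counts over the library size, with library sizes scaled by TMM. Flt3, sorted against, stood at 0 to 2.57 CPM. Il2ra, the gene of the surface protein CD25, also sorted against, stood at 2032 CPM in GFP+ replicate 3 and 151 to 396 CPM in the others. The 12 ILC precursor genes analysed summed to 9298 to 18560 CPM and were all above 0 in some library, while Zbtb16 is not analysed here. Among them, GFP+ replicate 3 was the lowest library for Itga4 (1795 CPM), Tcf7 (343 CPM), Tox (135 CPM), Rora (685 CPM) and Pdcd1 (0 CPM). It was the highest for Gata3 (945.5 CPM), Id2 (525 CPM), Ets1 (1536 CPM), Itgb7 (332 CPM), Thy1 (509 CPM) and Nfil3 (21.2 CPM). The library GFP+ replicate 3 stood apart from the other 5. Ribosomal protein genes held 8.33% of its counts and immunoglobulin genes 2.98%, against at most 3.22% and 0.136% elsewhere. It also had the smallest total, 10432461 estimated counts, and the fewest genes above 0, 11240 against 12576 to 15016 elsewhere. Its 4 plasma cell markers summed to 24210 CPM, mostly Igkc and Ighm, against 417 to 1476 CPM in the others, with Jchain at 802 CPM against at most 15.6 CPM. Its 4 neutrophil markers summed to 742 CPM against at most 166 CPM. GFP+ replicate 2 and GFP- replicate 3 had the largest mitochondrial shares, 5.16% and 4.63% against at most 2.27%. With each estimated count taken as independent, the 95% Wilson interval of such a library share reached at most 0.0174 percentage points to either side. Estimated counts and reads without molecular identifiers vary more than such intervals cover. In bulk RNA, fewer cells of a type and less RNA per cell cannot be told apart.

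Cish was the gene of the 10 whose values were higher in GFP+ ILCPs in every pair, and Jak2 the gene whose values were lower in every pair. The other 8 differed in opposite directions between pairs. Neither edgeR's quasi-likelihood test nor DESeq2 called any of the 10 at an adjusted p under 0.05, and neither did the authors' deposited table. Over all genes, edgeR called 0 of 12199 (0%; smallest adjusted p = 0.998), DESeq2 called 60 of 14608 with an adjusted p (0.411%), and in the authors' deposited table there were 98 of 13948 (0.703%). At an unadjusted p under 0.05, edgeR had 394 of 12199 genes (3.23%) and 1 of the 10, Cish.

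**Figure D1:**
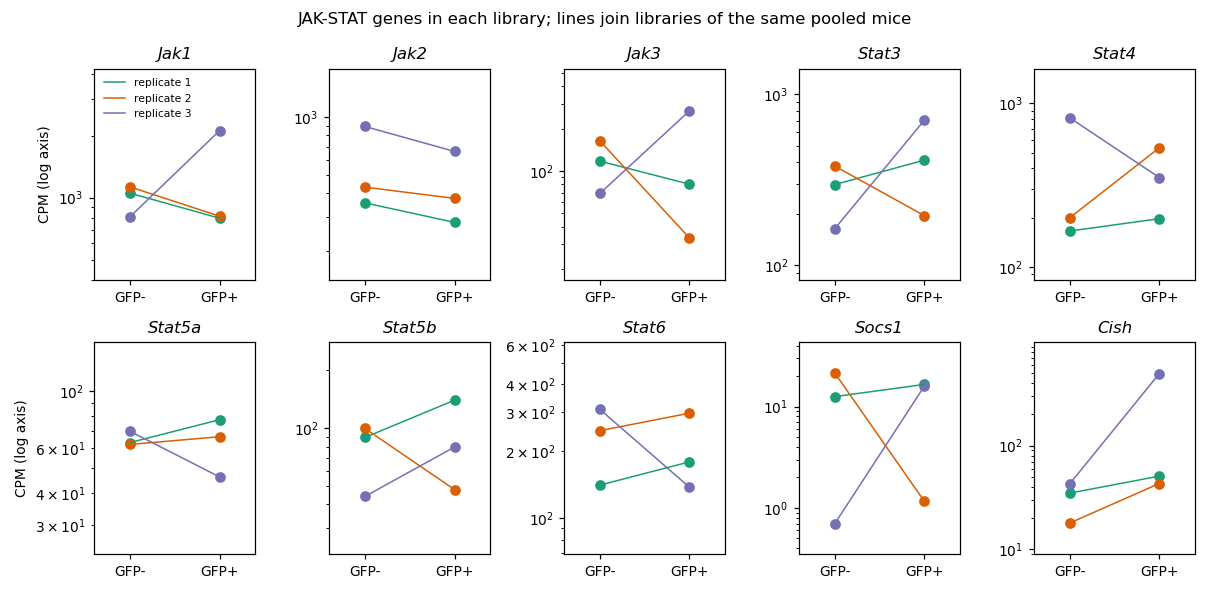
CPM of each gene (log axis) in the 3 GFP- and 3 GFP+ libraries; each point is a library, and lines join libraries from the same pooled mice. In 8 panels the lines slope in both directions, while Cish goes up in 3 of 3 pairs, furthest in replicate 3, and Jak2 goes down in 3 of 3 pairs by a small step.

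Among the kinases, Jak1, which serves receptors with the common gamma chain, gp130 receptors and interferon receptors, differed in opposite directions between pairs. GFP+ replicates 1, 2 and 3 had 794, 812 and 2115 CPM, and their GFP- partners had 1051, 1127 and 807 CPM. GFP+ replicate 3 was thus the high library, and the other 2 GFP+ libraries lay below their GFP- partners. The fitted log2 fold change of Jak1, GFP+ over GFP-, was 0.32 ± 0.55 (SE), and it became −0.31 without GFP+ replicate 3. Jak1 lies at chr4:101152367-101265282 on the minus strand (GRCm38, GENCODE vM21, as for all positions given here).

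Jak2 (chr19:29251828-29313080), the kinase of the IL-12, IL-23, interferon gamma and growth factor receptors, had GFP+ values of 283, 377 and 661 CPM in replicates 1, 2 and 3. Its GFP- values were 357, 431 and 891 CPM. The level followed the replicate more than the fraction: replicate 3 was the highest and replicate 1 the lowest in both groups, so the groups overlapped. Within pairs the log2 differences, GFP+ minus GFP-, were −0.34, −0.20 and −0.43. A lower value in 3 of 3 pairs was found for 14.9% of all genes tested. edgeR gave −0.35 ± 0.56 (SE; adjusted p = 0.998), and with the replicate number as a block −0.32 (edgeR adjusted p = 1). Without GFP- replicate 3 the value became 0.16.

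Jak3 (chr8:71676296-71690575) binds the common gamma chain and is the partner of JAK1 in IL-7 signalling. Its CPM were 80.2, 33.2 and 267 in GFP+ and 117, 163 and 68.9 in GFP- replicates 1, 2 and 3. The highest and the lowest library were both GFP+, and the log2 differences ran from −2.29 in pair 2 to 1.95 in pair 3. The fitted log2 fold change was 0.12 ± 0.74 (SE) and turned to −0.34 with the replicate block. Part of the Jak3 transcript sequence, 8.30% of its 31-base words, also occurs in transcripts of other genes, mostly of the neighbour Insl3, whose own counts were 0 to 524 per library, so some reads of Jak3 may have been given to Insl3 or the reverse.

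Of the 5 STAT genes, Stat3 had the largest fitted difference. STAT3 is activated by gp130 cytokines and IL-23. For Stat3, GFP+ replicates 1, 2 and 3 had 412, 195 and 705 CPM, and GFP- replicates had 297, 380 and 164 CPM. It was higher in GFP+ in pairs 1 and 3 and lower in pair 2. The log2 fold change was 0.64 ± 0.59 (SE; 95% interval −0.67 to 1.95; edgeR adjusted p = 0.998), and it became −0.16 without replicate 3. Stat3 lies at chr11:100885098-100939540 on the minus strand.

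Stat4 (chr1:51987148-52107189), which carries IL-12 signals toward interferon gamma, ran the other way across libraries. Its GFP+ values were 197, 534 and 352 CPM and its GFP- values 166, 199 and 815 CPM in replicates 1, 2 and 3. The highest library of each group was GFP+ replicate 2 and GFP- replicate 3, which were the 2 lowest libraries for Jak3, Stat3, Stat5b and Socs1. edgeR gave a log2 fold change of −0.12 ± 0.69 (SE). Since 23.7% of the 31-base words of Stat4 transcripts also occur in the predicted gene Gm28177, which is not analysed here, the division of reads between them is uncertain.

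Stat6 (chr10:127642986-127660957), the STAT of IL-4 and IL-13, stood at 179, 297 and 138 CPM in GFP+ and 141, 248 and 309 CPM in GFP- replicates 1, 2 and 3. Pairs 1 and 2 were higher in GFP+ by 0.35 and 0.26 log2 units, and pair 3 was lower, at −1.17. The log2 fold change was −0.18 ± 0.53 (SE), within the spread of the libraries.

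STAT5, the main STAT of IL-7 and IL-2, is encoded by Stat5a and Stat5b, which lie 8626 bases apart on chromosome 11 (Stat5b at chr11:100780731-100850724, minus strand; Stat5a at chr11:100859351-100885169, plus strand). The far end of Stat5a overlaps that of Stat3 by 72 bases on the opposite strand, and the labels do not say whether the counting used strand. How well short reads can separate the paralogs depends on how far their RNAs differ, so parts of both are shown here. The coding sequences, 2379 bases in Stat5a and 2358 in Stat5b, were 90.7% identical over 2343 aligned bases (GENCODE vM21). Their longest identical stretch ran over 324 bases, from coding base 571 to 894 in both genes, and its first 150 bases, where reads of the genes are alike, are the first sequence given. The other sequences are the coding ends, with the bases that differ or have no partner in capitals.
Stat5a and Stat5b, coding bases 571 to 720: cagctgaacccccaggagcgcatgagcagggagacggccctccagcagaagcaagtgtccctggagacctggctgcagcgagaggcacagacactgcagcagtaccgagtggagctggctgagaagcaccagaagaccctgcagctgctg
Stat5a, coding bases 2260 to 2379: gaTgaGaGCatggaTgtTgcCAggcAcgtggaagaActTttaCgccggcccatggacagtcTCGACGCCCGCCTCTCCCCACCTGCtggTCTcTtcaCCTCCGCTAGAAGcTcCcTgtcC
Stat5b, coding bases 2275 to 2358: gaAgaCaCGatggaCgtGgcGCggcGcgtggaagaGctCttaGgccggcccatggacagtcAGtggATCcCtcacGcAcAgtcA

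The last 120 coding bases of Stat5a hold 58 such capitals, and the matching 84 of Stat5b hold 22, so reads from this end can be told apart. Over whole transcripts, 836 words of 31 bases were common to both genes, and words found in any other gene made up 12.3% of those of Stat5a and 15.3% of those of Stat5b. Stat5a stood at 77.4, 66.4 and 46.3 CPM in GFP+ and 63.0, 62.0 and 69.7 CPM in GFP- replicates 1, 2 and 3. After TMM scaling its highest library was 1.67 times its lowest, the narrowest range of the 10 genes, while after scaling by library totals the range was 2.56 times, beside 2.55 for Stat6. Its log2 fold change was −0.03 ± 0.53 (SE; 95% interval −1.22 to 1.15). Stat5b stood at 140, 47.8 and 79.7 CPM in GFP+ and 89.4, 99.7 and 44.0 CPM in GFP- replicates. Its lowest libraries were GFP+ replicate 2 and GFP- replicate 3, and its log2 fold change was 0.20 ± 0.60 (SE).

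The share of Stat5 counts given to Stat5a, which does not depend on scaling between libraries, split the libraries across the fractions. It was 35.6%, 58.1% and 36.7% in GFP+ replicates 1, 2 and 3 and 41.3%, 38.3% and 61.3% in GFP- replicates, from 1059 to 3516 counts. Intervals for counting error (95%, Wilson) were 55.5% to 60.7% in GFP+ replicate 2 and 58.8% to 63.8% in GFP- replicate 3. The intervals of the other 4 reached no higher than 43.4%, so the high share of these 2 libraries lies beyond counting error, although estimated counts and reads without molecular identifiers vary more than such intervals cover. Between the groups the share differed by −3.48 percentage points, GFP+ minus GFP-, which did not pass an exact two-sided permutation test (p = 0.5; 3 libraries against 3 cannot go below 0.1). The difference was 7.05 points without replicate 3, 0.465 without GFP+ replicate 1 and 3.67 without GFP- replicate 3.

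**Figure D2:**
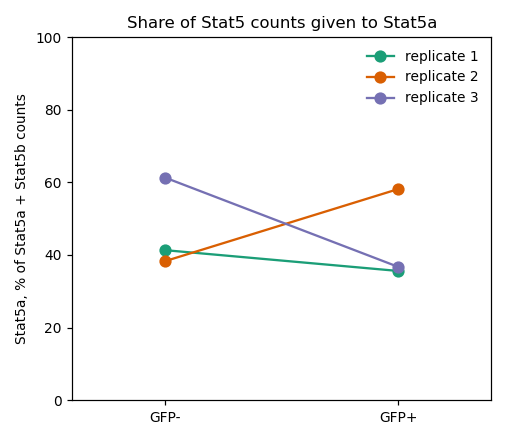
Counts of Stat5a as a percentage of Stat5a plus Stat5b counts in each library, with lines joining libraries of the same pooled mice. GFP+ replicate 2 (58.1%) and GFP- replicate 3 (61.3%) lie above the other 4 libraries (35.6% to 41.3%).

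SOCS1 binds JAKs and blocks their activity, and its gene is turned on by STATs. Socs1 (chr16:10782240-10785536, minus strand) was low throughout: GFP+ replicates 1, 2 and 3 had 16.6, 1.16 and 15.9 CPM, and their GFP- partners had 12.6, 21.5 and 0.70 CPM, with 14 and 9 counts in the 2 low libraries and 134 to 467 in the others. These low libraries were again GFP+ replicate 2 and GFP- replicate 3. The range over 6 libraries, 30.7 times after TMM scaling and 39.8 times after scaling by totals, was the widest of the 10 genes, and pair differences on the log2 scale were 0.40, −4.05 and 4.26. The fitted log2 fold change of −0.05 had an SE of 1.37 and a 95% interval from −3.08 to 2.99, so differences of several fold in either direction were not detectable.

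CISH, a SOCS family protein that competes with STAT5 for receptor docking sites and whose gene is a known target of STAT5, gave the largest difference. Cish (chr9:107296026-107302784) had 50.7, 43.0 and 497 CPM in the GFP+ libraries of replicates 1, 2 and 3 (799, 518 and 4179 counts). In the GFP- libraries it had 34.7, 17.8 and 42.6 CPM (495, 388 and 548 counts). GFP+ replicate 3 alone held 72.5% of the summed CPM, and the means were 197 ± 260.1 CPM in GFP+ and 31.7 ± 12.7 CPM in GFP- (SD, n = 3 each). Pair differences were 0.55, 1.26 and 3.54 log2 units, and a higher value in 3 of 3 pairs was found for 8.51% of all genes tested. The groups did not overlap after TMM scaling, but only by 43.0 against 42.6 CPM, and they overlapped after scaling by library totals, where the lowest GFP+ value was 34.4 and the highest GFP- value 42.4. Groups without overlap were found for 9.18% of all genes, and for 3.17% with the higher group GFP+.

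edgeR gave Cish a log2 fold change of 2.63 ± 0.95 (SE; 95% interval 0.53 to 4.74; unadjusted p = 0.0191, adjusted p = 0.998). With the replicate block it was 1.74 (unadjusted p = 0.0441). DESeq2 gave 2.75 ± 1.08 (SE) and no p, as it does for a gene in which it marks a count as an outlier. The authors' deposited table lists a log2 fold change of 2.77 with p = 0.00903 and adjusted p = 0.286. Without GFP+ replicate 3 the edgeR value was 0.56, and without both libraries of replicate 3 it was 0.83. The plasma cell, neutrophil, ribosomal protein and immunoglobulin values given above were also highest in GFP+ replicate 3. So were the summed markers of ILC2 (11 analysed; 4500 CPM against 1607 to 2826) and erythroid cells (7 analysed; 137 CPM against at most 44.1). The sums of monocytes and macrophages (8 analysed; 975 CPM against 86.4 to 864) and B cells (9 analysed; 122 CPM against at most 72.0) were too. Single markers were mixed in this library. Il1rl1 (2833 CPM against at most 839), Klrg1, Hs3st1 and Arg1 of ILC2 were highest, while Icos (330 CPM) and Il4 (0.71 CPM) were lowest. Lyz2 (819.5 CPM), Csf1r and C1qb were highest, while Cd68 (3.69 CPM) and Adgre1 (0.48 CPM) were lowest. Of B cell markers, Cd79a, Cd79b and Igll1 were highest, while Ebf1 (0.83 CPM) and Cd22 (1.55 CPM) were lowest. The part of these values in the Cish value was not tested. About 10.4% of the 31-base words of Cish occur in other genes, most of them in the predicted gene Gm17041, which is not analysed here.

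**Figure D3:**
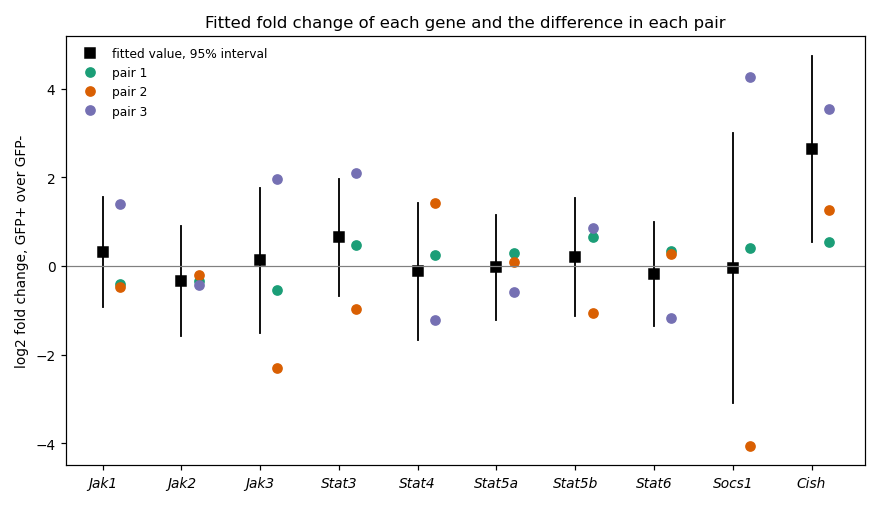
Log2 fold change of each gene, GFP+ over GFP-: squares are edgeR's fitted values, with 95% intervals computed from its F statistics. Coloured points are the differences within pairs 1, 2 and 3. Every interval but that of Cish (0.53 to 4.74) includes 0, and pair 3 is the farthest from 0 for most genes.

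Relative to Stat5a and Stat5b together, Cish stood at 0.233, 0.377 and 3.95 times their summed CPM in GFP+ replicates 1, 2 and 3. In GFP- replicates the ratio was 0.228, 0.110 and 0.375. The high ratio was again that of GFP+ replicate 3, where the summed Stat5 level, 126 CPM, lay within the 114 to 217 CPM of the other libraries.

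A list of 12 other genes known as STAT5 targets had 10 with a fitted value above 0 and 2 below, and 0 were called. Over all genes tested, 5980 of 12199 were above 0. The count of targets above 0 was 8 without GFP+ replicate 3 and 7 with scaling by library totals. The latter scaling moved the median of all genes from −0.03 to −0.19. Their median log2 fold change was 0.26, beside −0.03 over all genes, and by pair it was 0.16, 0.28 and 0.90. By the naming rule the most abundant are named first. Bcl2, a survival factor, stood at 791, 3091 and 332 CPM in GFP+ and 1081, 1147 and 2169 CPM in GFP- replicates 1, 2 and 3, with GFP+ holding both the highest and the lowest library. Il2ra, which encodes CD25, the surface protein sorted against, stood at 151, 396 and 2032 CPM against 177, 324 and 340 CPM, so that GFP+ replicate 3 was again the high library.

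Of this list, 4 of 12 genes were higher in 3 of 3 pairs after TMM scaling (Socs2, Pim1, Pim2 and Ccnd2), beside 8.51% of all genes, and 1 was lower (Lta). These genes are named after their values were seen. After scaling by library totals the count higher in 3 of 3 pairs was 1, beside 5.92% of all genes, and Pim1 and Ccnd2 were higher in 2 of 3. Pim2, a survival kinase, stood at 63.1, 66.1 and 107 CPM in GFP+ and 27.8, 32.7 and 21.0 CPM in GFP- replicates. Its groups did not overlap under any of the 3 scalings, and the log2 fold change was 1.54 ± 0.59 (SE; unadjusted p = 0.0259, edgeR adjusted p = 0.998). Ccnd2, the cell cycle protein cyclin D2, stood at 320, 348 and 942 CPM against 252, 254 and 207 CPM, without overlap after TMM scaling and with overlap after scaling by totals. Pim1, a kinase related to Pim2, stood at 55.0, 71.9 and 189 CPM against 50.5, 59.9 and 28.8 CPM, with overlapping groups.

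**Figure D4:**
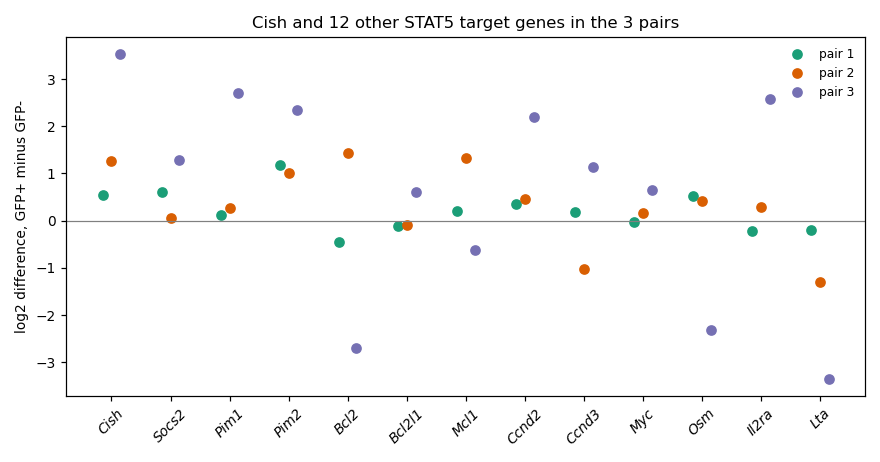
Log2 difference in TMM-scaled CPM, GFP+ minus GFP-, of Cish and the STAT5 target genes in each pair of libraries. Cish, Socs2, Pim1, Pim2 and Ccnd2 lie above 0 in 3 of 3 pairs (with scaling by totals, Pim1 and Ccnd2 in 2 of 3) and Lta below 0, while Bcl2 and Osm lie far below 0 in pair 3.

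Including these targets, the list of other JAK-STAT genes had 67 symbols, of which 66 were tested and Tyk2 is not analysed here. Of the 66, 43 had a fitted value above 0 and 23 below, beside 5980 above and 6219 below among all 12199 genes tested. Of the 66, 0 were called by edgeR or DESeq2, and 2 had an unadjusted edgeR p under 0.05 (Socs7 and Pim2). Their median log2 fold change was 0.20. After TMM scaling, groups did not overlap for 6 of the 66, all higher in GFP+. Over all 12199 genes, 3.17% were apart and higher, and 733 genes were apart and lower. Values were higher in 3 of 3 pairs for 15 of the 66 and lower for 3, beside 8.51% and 14.9% of all genes. With scaling by library totals, 4 were apart and higher, 3 were apart and lower, and the counts over pairs were 10 and 7. Over all 12199 genes this scaling had 2.12% apart and higher and 795 genes apart and lower. Its shares over pairs were 5.92% higher and 18.5% lower. The 6 apart after TMM scaling were Ptpn1, Ifngr1, Ifnar1, Lifr, Pim2 and Ccnd2, of which Ptpn1, Lifr and Pim2 also stood apart after scaling by library totals.

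Receptors of JAK-STAT cytokines had 18 of 26 with a fitted value above 0, a median of 0.53 and 0 called. Il7r stood at 1259, 2459 and 2471 CPM in GFP+ and 1357, 1707 and 2679 CPM in GFP- replicates 1, 2 and 3 (log2 fold change 0.11 ± 0.54, SE), and Il2rg, the common gamma chain, at 268, 830 and 673 CPM against 519, 582 and 892 CPM. Both receptor chains of IL-7 thus overlapped between the fractions. Named after its values were seen, Ifngr1, the ligand-binding chain of the interferon gamma receptor, stood at 139, 317 and 125 CPM against 110, 86.6 and 105 CPM.

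Irf9, which encodes a DNA-binding partner of STAT2 in interferon signalling, stood at 61.8, 32.5 and 110 CPM in GFP+ and 47.5, 93.2 and 89.5 CPM in GFP- replicates 1, 2 and 3. Its groups overlapped, with a log2 fold change of −0.17 ± 0.62 (SE).

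Of the inhibitors, 3 of 6 other SOCS genes were above 0. Socs4 stood at 55.1, 81.1 and 66.6 CPM in GFP+ and 67.1, 60.1 and 356 CPM in GFP- replicates, so 1 GFP- library was high. Socs7 stood at 105, 29.8 and 223 CPM against 37.9, 32.3 and 27.9 CPM, higher in 2 of 3 pairs (unadjusted p = 0.0274, edgeR adjusted p = 0.998). PIAS genes, whose proteins bind STATs in the nucleus, had 2 of 4 above 0. Pias1 stood at 163 ± 80.0 CPM against 155 ± 46.4 CPM and Pias2 at 47.7 ± 6.76 CPM against 36.3 ± 13.1 CPM (SD, n = 3 each).

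Phosphatases and adaptors that damp the signal had 7 of 9 above 0, with a median of 0.20. Ptprc, which encodes the phosphatase CD45, stood at 1551 ± 467 CPM against 1264 ± 128 CPM, and Dusp1, a phosphatase of MAP kinases, at 602 ± 342 CPM against 577 ± 394 CPM (SD, n = 3 each). Named after its values were seen, Ptpn1, which removes phosphate from JAK2, stood at 90.1, 110 and 108 CPM in GFP+ and 49.1, 54.2 and 49.2 CPM in GFP- replicates. Its groups were apart under all 3 scalings, with a log2 fold change of 1.01 ± 0.50 (SE; unadjusted p = 0.0709, edgeR adjusted p = 0.998). Signal adaptors had 4 of 8 above 0. Pik3r1, a regulatory subunit of PI3 kinase, stood at 197, 917 and 392 CPM against 293, 400 and 1175 CPM, high in the same 2 libraries as Stat4, and Sos1, an activator of RAS, at 107, 267 and 348 CPM against 92.2, 119 and 252 CPM.

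Across the 6 libraries the members fell into patterns that crossed the fractions. GFP+ replicate 2 and GFP- replicate 3 were the 2 lowest libraries for Jak3, Stat3, Stat5b and Socs1 and the 2 highest for Stat4 and Stat6. Base composition moved with these libraries. Among 3012 genes in the quartile of highest GC content (54.4% to 76.5% GC in the longest coding transcript), the median deviation from the gene's own mean was −0.47 and −0.21 log2 units in these libraries. In the quartile of lowest GC it was 0.29 and 0.39. In GFP+ replicate 1 and GFP- replicates 1 and 2 the GC-rich quartile was the higher one, at 0.27, 0.40 and 0.46 against 0.13, 0.03 and −0.07. GFP+ replicate 3 was below 0 in both, and there too the GC-rich quartile was the higher one, at −0.10 against −0.53. By GC content the members ranged from Jak2 (44.3%), Stat4 (45.4%) and Jak1 (47.6%) to Socs1 (58.8%) and Jak3 (61.1%). Members did not all follow GC order in GFP+ replicate 2 and GFP- replicate 3. Jak1 deviated from its mean by −0.36 and −0.37 log2 units there. Stat6 (53.7% GC) deviated by 0.52 and 0.58, and Stat5a (55.8% GC) by 0.07 and 0.14. The part of base composition in the members' values was not tested.

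**Figure D5:**
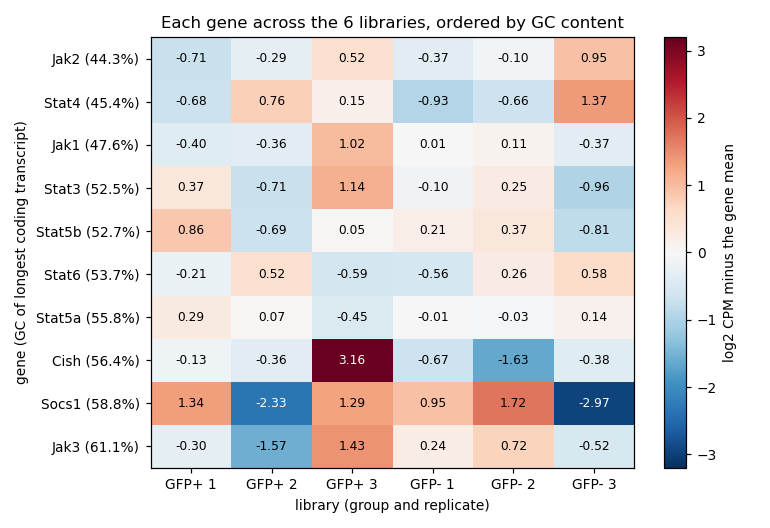
Log2 CPM of each gene minus its mean over the 6 libraries (colour and printed value), with genes ordered from the lowest GC content at the top to the highest at the bottom. Socs1 is lowest in GFP+ 2 (−2.33) and GFP- 3 (−2.97), where Stat4 is high (0.76 and 1.37), and the largest value is that of Cish in GFP+ 3 (3.16).

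The spread between libraries differed among the members. Their median biological coefficient of variation in the fit was 0.565, beside 0.832 over all genes tested, and it ran from 0.52 for Stat6 to 1.11 for Socs1. The members were not matched to other genes by count level, and Socs1 had the lowest mean level of the members. Within groups the median SD of log2 CPM was 0.79 in GFP+ and 0.63 in GFP-, beside 1.29 and 0.72 over all genes, so that both the members and all genes spread more among the GFP+ libraries.

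Levels were compared between genes per length, as TPM, the level per base of transcript scaled to the same total in each library, over the longest coding transcript. Jak1 stood highest, at 355 to 777 TPM over the 6 libraries, followed by mean level by Stat4 (194 to 669), Jak2 (161 to 434), Stat3 (66.5 to 257), Stat6 (60.1 to 222), Cish (21.2 to 288), Jak3 (17.7 to 137), Stat5b (19.7 to 101), Stat5a (19.6 to 75.0) and Socs1 (0.60 to 25.0 TPM). Of neighbours in this order, only Stat5a and Socs1 kept their order in 6 of 6 libraries, and the other neighbours changed places in 1 to 4 of them. Jak1 ranked 1 to 3 among the 10 in every library and Socs1 ranked 9 or 10, while Cish ranked 2 in GFP+ replicate 3 and 7 to 10 elsewhere. By mean level per length, therefore, the Stat5 genes stood below Stat4, Stat3 and Stat6.

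The genes most like each member across the 6 libraries were sought among 9660 others by the root mean square difference of centred log2 CPM. Hs3st3b1, Rrp8 and Sgpp1 were most like Cish, at 0.28, 0.38 and 0.40 log2 units, beside a median of 1.79 over all genes compared. The closest genes lie below this median by selection, so it gives the scale of the differences and is no test. Hs3st3b1 stood at 28.0, 15.4 and 154 CPM in GFP+ and 11.6, 7.08 and 13.9 CPM in GFP- replicates, high in the same library. The closest to Socs1 were Htatip2, Sin3b and Alkbh7 at 0.37, 0.39 and 0.41, and the closest to Stat5a were Skint8, Lonp2 and Lrba at 0.07 to 0.08. Emp3 was closest to Jak1 (0.13), Pigt to Jak2 (0.10), Fbxo31 to Jak3 (0.19), Aph1a to Stat3 (0.15), Sssca1 to Stat5b (0.11) and Fundc1 to Stat6 (0.09). For Stat4 the closest with a gene name was Emc4 (0.17).

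Upstream of the start sites, the 250 bases before each start in the RefSeq promoter table (GRCm38.p6) were searched on both strands for the STAT element TTCNNNGAA and for the E-box CAGNTG, which E proteins are known to bind. All 10 members matched, with 13 start sites. The STAT element was in 0 of the 13 windows, and in 7.02% of the 32851 windows of the whole table. An E-box was in 7 of the 13 windows (53.8%), beside 44.8% of all windows. The 7 belonged to Stat3, Stat4, Stat5a (2 starts), Stat5b, Jak2 and Cish, and in Cish the E-box began 179 bases before the start. For Stat4 and Stat5b it belonged to a start inside the gene, and the window of their other start had no E-box. The bases after these inner starts, and after the start of Jak2, were not found in the gene's GENCODE transcripts. All 250 bases of the Cish window are exon of a coding GENCODE transcript, so its window is not upstream of that transcript. A match is a description of the letters in these windows. Of the 7, 5 overlap the member's own gene span in GENCODE vM21 (those of Stat4, Stat5a, Stat5b and Cish), so they are not upstream of every transcript of the gene.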

How the data were processed

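Per the labels' protocols, RNA of sorted cells was amplified by single primer isothermal amplification (Trio RNA-seq), depleted of ribosomal RNA and sequenced as 75-base read pairs. Tools named in the submitters' processing notes are kallisto, DESeq2, Bowtie2 and Trimmomatic, with no versions, and the build is GRCm38. The deposited table holds estimated counts for 16383 genes, not normalized between libraries. Per the file headers, the authors' table also gives a mean of scaled counts (a signal), log2 fold changes with errors, a Wald score, p-values and adjusted p-values. Symbols later in the alphabet than Trappc10 are not analysed here.

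Estimated counts were rounded and tested with edgeR 4.0.16 (quasi-likelihood, robust, TMM, filterByExpr; group as the only term; Benjamini-Hochberg over all genes tested, threshold 0.05) in R 4.3.3, with DESeq2 1.42.0 beside it. CPM used TMM. Log2 CPM for patterns had a prior count of 2. Per the labels, libraries of the same number come from the same pool of mice and are therefore pairs; correlations of their deviations were 0.161, −0.121 and −0.131, and the pairing rests on the labels. The scripts were tested on simulated data. TPM and GC content used the longest coding transcript of GENCODE vM21, and shared words of 31 bases were counted over all its transcripts. The members and lists were chosen with earlier results of these data known. Named were the 10 members, other pathway genes that were called, and the 2 of highest mean CPM in each list, of which 1 gene is not reported here; others are marked as named after their values were seen. Python 3.11.15 with matplotlib 3.10.9 drew the figures.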

Additional observations from a re-analysis of the deposited data

How the results depend on the processing

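Values for genes are log2 fold changes, GFP+ over GFP-. edgeR called 0 genes, 0 members and 0 pathway genes under every alternative; DESeq2 in its place called 60 genes. DESeq2's count was 153 with the replicate block, 19 under a filter at 50 counts, and 27 to 682 with 1 library or replicate left out. Cish kept its direction in 15 of 15 alternatives (0.56 to 3.23; edgeR adjusted p of 0.43 to 1), and each other member reversed in at least 1. Scaling by DESeq2's factors gave 0.0127 for Stat5a and 0.0294 for Socs1, and DESeq2 itself gave 0.0132 and 0.0268. Scaling by totals gave −0.19 for Jak3. The replicate block gave −0.34 for Jak3, 0.16 for Stat4 and 0.32 for Socs1, and changed no call of a member. With 1 library or replicate left out, values ran from −0.44 to 0.65 for Jak1, −0.76 to 0.16 for Jak2, −1.31 to 0.90 for Jak3, −0.16 to 1.27 for Stat3, −0.85 to 1.00 for Stat4, −0.19 to 0.20 for Stat5a, −0.23 to 0.71 for Stat5b, −0.56 to 0.29 for Stat6 and −0.95 to 1.29 for Socs1. The share of Stat5a ran from −15.1 to 7.05 points, and its block fit gave −3.48 (exact sign-flip p = 0.75; the smallest possible is 0.25). The causes were not tested. Counts of members and of STAT5 targets above 0, added after seeing the data, ran over 4 to 7 of 10 and 7 to 10 of 12. Precision is limited by 3 libraries a group and a common coefficient of variation of 0.922 between libraries.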
